A study of Mus musculus with 16 samples.

Results

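Insulin and islet amyloid polypeptide are the hormones that pancreatic beta cells release, and the chromatin around their 3 mouse genes, Ins1, Ins2 and Iapp, was examined in islets by ATAC-seq. In this assay a transposase inserts sequencing adapters into open DNA, so that accessible regions gather reads and are called as peaks. Peaks of the 16 samples on the 19 autosomes were merged wherever they touched or overlapped, which gave 347712 regions. The hormone regions were those that overlapped the annotated body of Ins1, Ins2 or Iapp, the 3 kb upstream of it or the 20 kb on either side. There were 21 of them, of which 7 carried a peak in all 16 samples, against 40940 such regions on all autosomes.

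The islets came from 8 inbred strains, with 1 female and 1 male sample each and no treatment named in the labels. The strains were 129S1_SvImJ (129), A_J (AJ), C57BL/6J (B6), CAST_EiJ (CAST), NOD_ShiLtJ (NOD), NZO_HlLtJ (NZO), PWK_PhJ (PWK) and WSB_EiJ (WSB). CAST, PWK and WSB are wild-derived, per the text of the study, and the other 5 are classical laboratory strains. Each sample was a selection of average-sized islets, the age of the mice was not in the labels, and the female and the male were the only replicates of a strain (n = 2).

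Insulin lowers blood glucose, and mice carry 2 genes for it. Ins2 is the ancestral gene with a counterpart in other mammals, whereas Ins1 arose in rodents as a copy made from an Ins2 transcript and lacks an intron that Ins2 keeps. Iapp encodes amylin, a peptide stored and released together with insulin. Their transcription in beta cells depends on homeodomain factors such as PDX1, on E-box factors such as NEUROD1 and on MAF factors such as MAFA.

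All positions are on mm10 (GRCm38), with GENCODE release 21 of mouse. Ins1 (ENSMUSG00000035804.5) lies on the plus strand at chr19:52264297-52265476. Ins2 (ENSMUSG00000000215.11) lies on the minus strand at chr7:142678656-142743381. Its annotated body was 64726 bases long because it includes read-through transcripts that begin far upstream, and 7 of its 9 transcripts began within the promoter region used here. Distances at Ins2 were therefore counted from the start at position 142679726. Iapp (ENSMUSG00000041681.2) lies on the plus strand at chr6:142298423-142303961, inside the opposite-strand transporter gene Slco1a5. None of the 5 regions around Iapp overlapped an exon of Slco1a5.

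Each sequence printed here held the highest summit of its own region in every sample. A RefSeq promoter entry (GRCm38.p6) was found for 2 of the 3 genes, Ins1 and Iapp, and its bases upstream of the transcription start are printed (chr19:52264047-52264296 and chr6:142298175-142298422). The other windows are 200 bases at the median summit of the strongest upstream region of each of these genes, read from the same assembly (chr19:52252459-52252658 and chr6:142289480-142289679). All are given 5′ to 3′ on the plus strand, which is the strand of both genes. Capitals mark matches on either strand to TAAT (the homeodomain core that PDX1 binds) and CATCTG (the E-box core of insulin promoters). They also mark GCTGA (the MAF half-site) and TATAA (the letters of a TATA box), likewise on either strand. These motifs were chosen with the sequences in view.
Ins1 promoter: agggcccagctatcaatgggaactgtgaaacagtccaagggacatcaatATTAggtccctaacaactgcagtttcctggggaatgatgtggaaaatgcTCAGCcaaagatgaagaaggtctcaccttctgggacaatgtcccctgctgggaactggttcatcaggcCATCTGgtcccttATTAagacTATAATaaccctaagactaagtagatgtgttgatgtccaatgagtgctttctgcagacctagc
Iapp promoter: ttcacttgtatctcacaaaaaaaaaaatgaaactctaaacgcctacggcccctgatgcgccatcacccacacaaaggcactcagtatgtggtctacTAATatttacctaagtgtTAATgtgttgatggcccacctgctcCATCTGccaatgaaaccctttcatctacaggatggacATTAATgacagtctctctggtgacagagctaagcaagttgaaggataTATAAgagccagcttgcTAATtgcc
Ins1 −11.7 kb region: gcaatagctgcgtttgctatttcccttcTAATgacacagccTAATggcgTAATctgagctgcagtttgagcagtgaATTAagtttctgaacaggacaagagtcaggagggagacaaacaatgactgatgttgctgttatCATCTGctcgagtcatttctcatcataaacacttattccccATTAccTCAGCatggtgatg
Iapp −8.8 kb region: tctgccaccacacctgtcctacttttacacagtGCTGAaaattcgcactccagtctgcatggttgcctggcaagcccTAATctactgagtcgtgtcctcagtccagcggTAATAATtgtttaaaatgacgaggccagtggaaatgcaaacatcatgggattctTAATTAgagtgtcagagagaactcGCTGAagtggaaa

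The Ins1 promoter held 3 TAAT matches, 1 CATCTG match from −84 to −79, 1 GCTGA match on the minus strand from −152 to −148, and TATAA from −63 to −59, which overlapped the TAAT match from −61 to −58. The Iapp promoter held 5 TAAT matches, 1 CATCTG match from −109 to −104 and TATAA from −25 to −21, with no GCTGA match in this window. Of 31396 autosomal RefSeq promoters, 54.8% held TAAT, 14.5% CATCTG, 46.9% GCTGA and 22.8% TATAA in the 250 bases before the start. The window at −11.7 kb of Ins1 held 5 TAAT matches, 1 CATCTG and 1 GCTGA, and the window at −8.8 kb of Iapp held 5 TAAT and 2 GCTGA matches with no CATCTG. Among windows of the same 200 bases at the summits of the 40940 regions with a peak in every sample, 58.1% held TAAT, 19.4% CATCTG and 47.9% GCTGA. A match describes letters in the reference sequence and is no evidence of binding. The TATAA match of Ins1 lay farther from the annotated start than that of Iapp, and whether either is a TATA box was not tested.

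Accessible chromatin at the hormone genes was concentrated in 7 regions, each with a peak in all 16 samples. Ins1 had a promoter region (chr19:52262713-52272847) and a region whose median summit lay at −11.7 kb (chr19:52251232-52254601). Ins2 had only its promoter region (chr7:142675422-142680624). Iapp had a promoter region (chr6:142297874-142299111), regions at −16.3 kb (chr6:142280200-142282697) and −8.8 kb (chr6:142289105-142290341), and a 19140-base region with its median summit at 8.0 kb (chr6:142300200-142319339), which ran from the gene body past the gene end. In the map of peaks by sample, these regions recur in every sample and the remaining peaks in 8 samples or fewer.

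**Figure D1:**
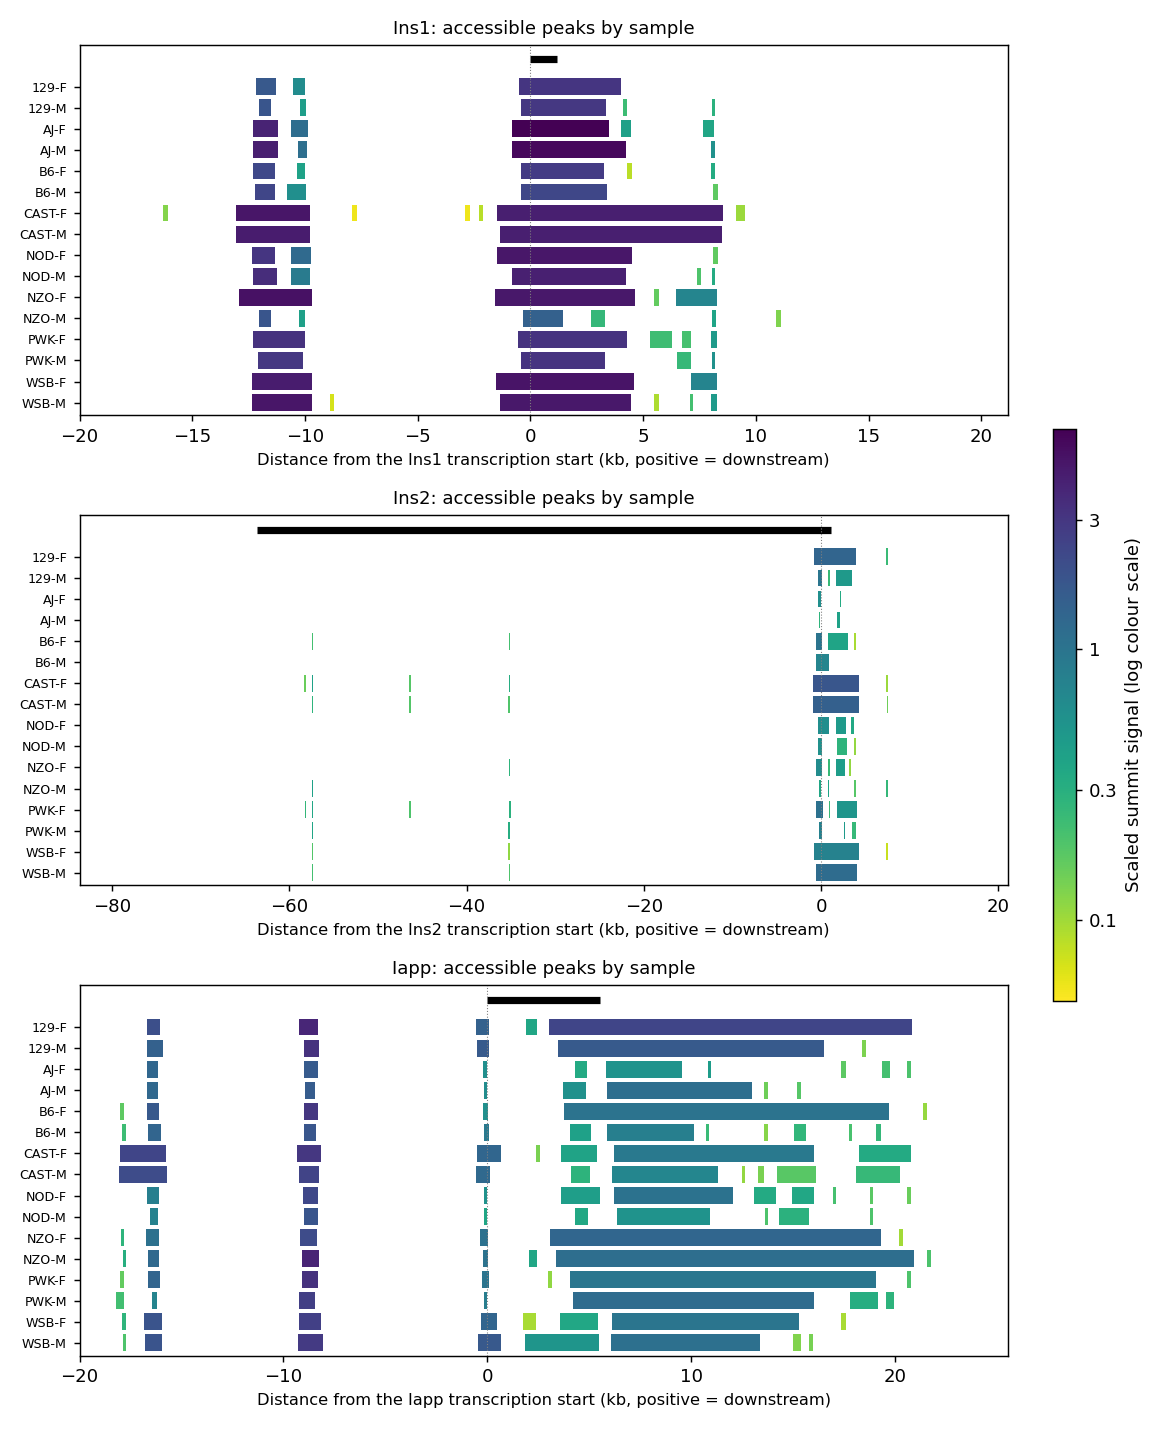
Peaks of each of the 16 samples (rows; F female, M male) around Ins1, Ins2 and Iapp by distance from the transcription start in kb, coloured by scaled summit signal on a log colour scale, with the annotated gene body as a black bar and bars narrower than 150 bases widened to that size. The 7 regions called in all samples form columns, and the Ins1 promoter peak runs from 1793 bases in the NZO male to 10017 bases in the CAST female.

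The other 14 regions were weak and sporadic. Of these, 9 carried a peak in 1 sample only, and 5 in 2 to 8 samples. The CAST female had peaks in 10 of the 14, the CAST male, the NZO male and the PWK female in 4 each, and the 129 male, both AJ samples, the B6 male and both NOD samples in none. Within the long read-through body of Ins2, regions at −35.2 kb and −57.4 kb had peaks in 8 samples each. At −57.4 kb these included both sexes of CAST, PWK and WSB, the B6 female and the NZO male, and the scaled signal, the summit signal over the median of the sample at shared regions, reached at most 0.4. A sample without a listed peak had none past the threshold of the authors, which does not mean that the region was closed there.

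To compare samples, the summit signal of a peak was divided by the sample's median over the 40940 regions called in all samples. This scaled signal is a height at the summit and not a sum over the length of the region, and a value of 1 is the typical shared region of that sample. In bulk islets, a smaller share of beta cells and a lower signal per beta cell cannot be told apart. Strain and sex were tested together with limma on centred log2(signal + 1), with Benjamini-Hochberg adjustment over all 40940 regions. Strain effects passed the threshold at 4 of the 7 hormone regions (57.1%), against 35.7% of all regions tested. Those 4 were the Ins2 promoter, the Iapp promoter, Iapp −16.3 kb and Ins1 −11.7 kb. No hormone region passed for sex (0 of 7), where 0.0% of all regions did. At an unadjusted p under 0.05 it was also 0 of 7 for sex, against 3.96% of all regions.

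The Ins1 promoter was the most accessible of the 3 hormone promoters in every sample. Its scaled signal was highest in AJ, with 6.49 in the female and 5.87 in the male. In WSB the values were 5.08 and 4.73, in NOD 4.87 and 4.26, and in CAST 4.31 and 4.33. Each of these 8 samples was above both samples of PWK, 129 and B6. PWK gave 3.16 and 3.12, 129 gave 3.05 and 2.97, and B6 gave 2.80 and 2.31. NZO was split, with 4.77 in the female and 1.45 in the male, the lowest value of all 16.

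By strain mean, the Ins1 promoter therefore ran from 6.18 ± 0.438 in AJ (SD, n = 2) through WSB, NOD, CAST, PWK, NZO and 129 to 2.56 ± 0.342 in B6. AJ stood apart from WSB, CAST from PWK, and 129 from B6, whereas the samples of all other neighbours in this order overlapped. AJ and B6 differed by 1.27 ± 0.36 (SE) on the log2 scale, a ratio of 2.42. The strain effect at this promoter did not pass the threshold (limma F test, adjusted p = 0.0632). It passed when the NZO female (adjusted p = 0.000586), the NZO male (0.00349) or both (0.00241) were left out, and the value over all alternatives ran from 0.000586 to 0.183.

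**Figure D2:**
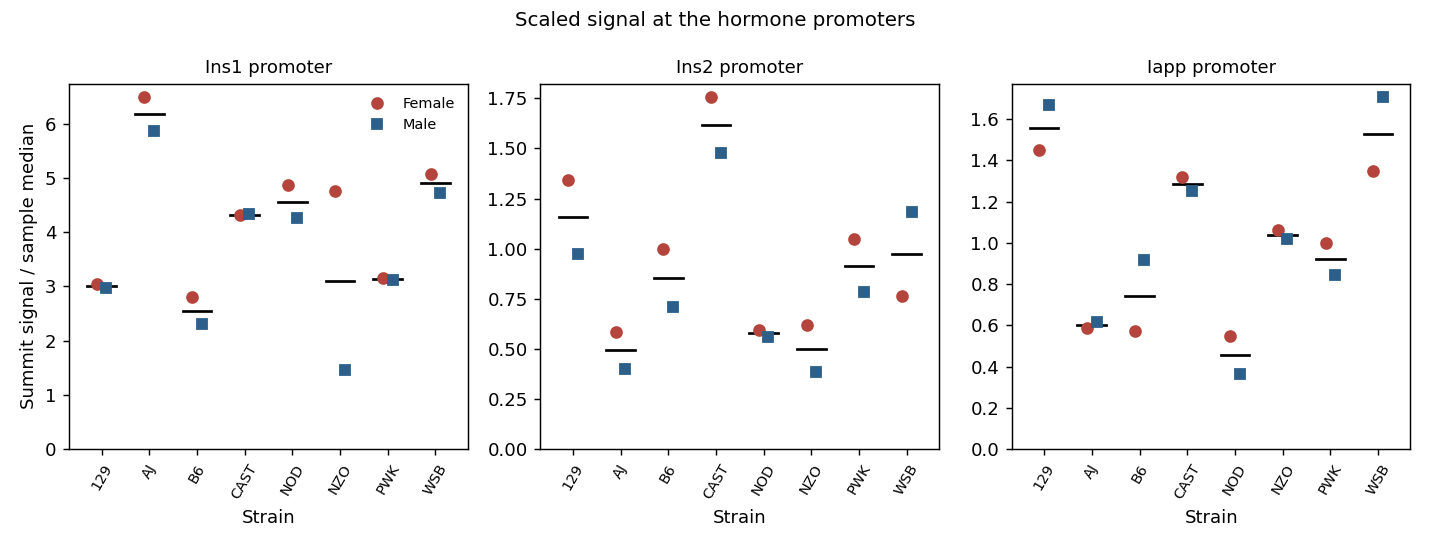
Scaled summit signal (summit signal over the sample's median at shared regions) at the promoters of Ins1, Ins2 and Iapp in 8 strains, with circles for females, squares for males and a black line at the mean of each strain. AJ is highest at Ins1 (6.49 and 5.87) and low at Ins2 (0.585 and 0.4), and NZO is split at Ins1 (4.77 and 1.45).

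Upstream of Ins1, the region at −11.7 kb overlapped no other annotated gene. WSB (4.51 in the female, 4.95 in the male), CAST (4.93 and 4.46) and AJ (4.05 and 4.35) were high. The lowest strain was 129 (1.71 and 1.81), below B6 (2.25 and 2.34), with NOD (3.09 and 3.49) and PWK (3.24 and 2.97) between. The NZO female had the highest value of all samples, 5.21, and the NZO male 1.82. WSB exceeded 129 by 1.42 ± 0.35 (SE) on the log2 scale, and the strain effect passed the threshold narrowly (limma, adjusted p = 0.0429). It passed in 11 of 26 alternatives, among them 2 of the 16 that left out a sample, those of the NZO female (0.000647) and the NZO male (0.000914), and the values of all alternatives ran from 0.000647 to 0.143. Over the 16 samples the promoter and this region had a Pearson r of 0.79, a description of values that share libraries.

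The female and the male of NZO differed more than those of other strains at both Ins1 regions. At the Ins1 promoter the female exceeded the male by 1.71 on the log2 scale and at −11.7 kb by 1.52, while in the other 7 strains the absolute difference at the Ins1 promoter was at most 0.27. The direction was the opposite at Iapp −8.8 kb, where the NZO male had 4.00 and the female 2.12. The median absolute difference between the sexes over the 7 hormone regions was 0.66 in NZO and 0.10 to 0.34 in the other strains. The same median over all 40940 regions was also highest in NZO, at 0.47.

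The NZO male also had peaks at more promoters of non-endocrine markers than any other sample. Of 32 such markers it had a promoter peak at 16, against 3 to 10 in the other samples, and 7 of them had a peak in no other sample. These were Cela1 (acinar), Sox9 and Krt19 (duct), Pecam1 (endothelial) and Spi1, Itgam and Adgre1 (leukocyte). The lists differed in length, with 141307 autosomal peaks in the NZO male and 77887 in the AJ male, which had 3 of the markers. Longer lists were those of the WSB female (167051 peaks, 9 markers) and the PWK male (145886 peaks, 5 markers). The share of all promoters with a peak was not counted by sample. The summed scaled signal of the NZO male was 2.31 over the 11 acinar markers, against 0.395 to 1.29 in the other 15 samples, and 2.60 over the 5 duct markers, against 0.446 to 1.27. Over the 7 leukocyte markers it was 4.51, against 0.568 to 1.70. The endothelial and stromal sums were highest in the CAST female (0.717 and 0.566), with 0.564 and 0.509 in the NZO male. Its sum over 31 beta cell genes, 66.9, was the lowest, against 68.1 to 95.1. Defining exocrine enzyme genes (Pnlip, Cel, Ctrb1, Prss1, Amy2b and Cela3b) and the T cell gene Cd3e had no peak in any sample. The part of other cell types in the NZO values was not tested.

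**Figure D3:**
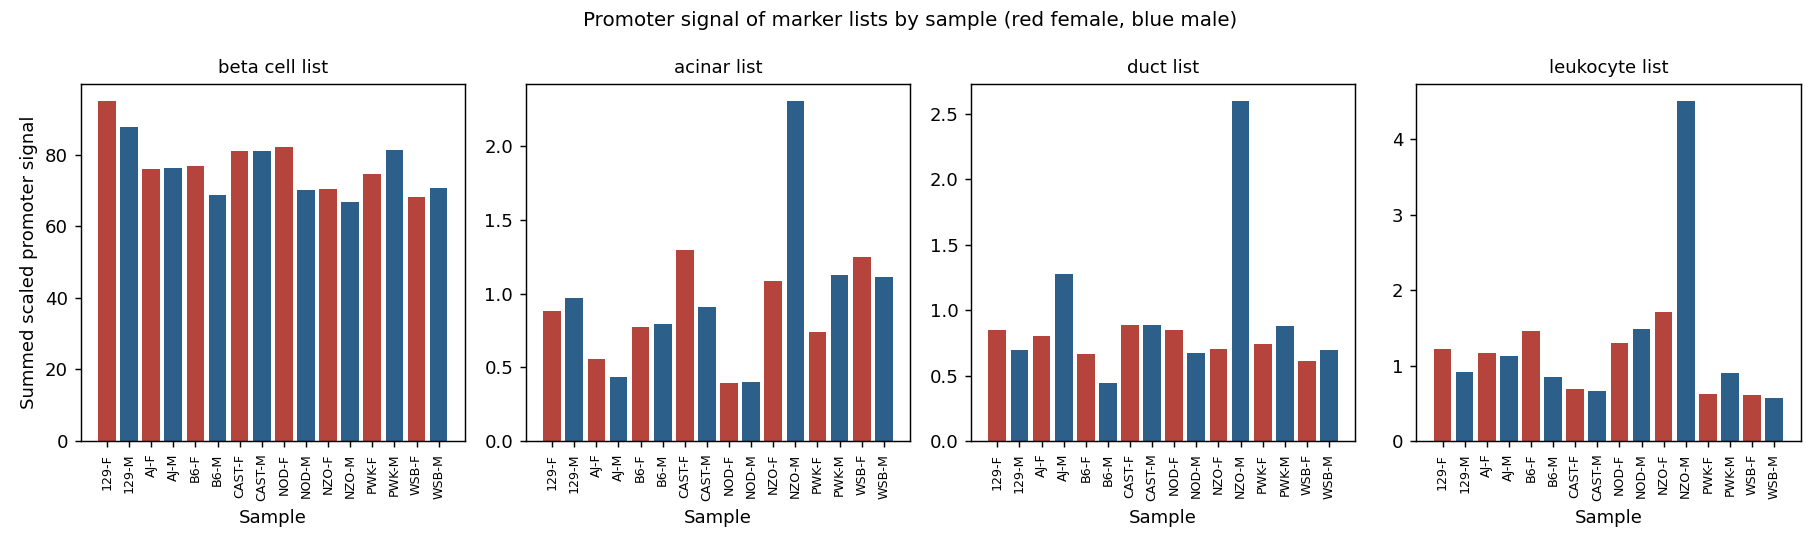
Summed scaled promoter signal of 4 marker lists in each of the 16 samples (bars from 0; red female, blue male). The NZO male has the highest acinar (2.31), duct (2.60) and leukocyte (4.51) sums and the lowest beta cell sum (66.9).

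Ins2, the ancestral insulin gene, had a far lower summit than Ins1 and another order of strains. CAST was highest, with 1.75 in the female and 1.48 in the male, and 129 followed with 1.34 and 0.971. WSB gave 0.764 and 1.18, PWK 1.05 and 0.781, and B6 1.00 and 0.711. NOD (0.593 and 0.561), NZO (0.617 and 0.382) and AJ (0.585 and 0.4) were low. All 6 samples of these last strains were below every sample of the other 5.

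The Ins2 means ran from 1.62 ± 0.196 in CAST (SD, n = 2) to 0.492 ± 0.131 in AJ, a 3.28-fold range that was 1.70 ± 0.29 (SE) on the log2 scale. CAST stood apart from 129, and B6 from NOD, with overlapping samples between all other neighbours. The strain effect passed the threshold (limma, adjusted p = 0.00496) and did so in all 25 alternatives in which it could be fitted (0.00259 to 0.0290). In 14 samples the highest summit lay within 250 bases of the start. In the AJ male it lay at 1977 bases and in the NZO male at 819 bases downstream, and with peaks near the start alone these samples had 0.273 and 0.364 (adjusted p = 0.00559 for strain).

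AJ had the highest Ins1 promoter and the lowest Ins2 promoter of the 8 strains. The ratio of Ins1 to Ins2 within a sample was above 1 in 16 of 16 samples and ranged from 2.27 to 14.7, with a median of 3.90. The highest ratio, in the AJ male, and that of the NZO male (3.81) used Ins2 summits 1977 and 819 bases downstream of the start. Among 9284 promoters of protein-coding genes called in all samples, the Ins1 promoter stood at the percentile 75.6 by mean scaled signal and the Ins2 promoter at 13.9. Both regions were wide, at the percentiles 98.6 and 94.2 of width. Since Ins1 is a copy of Ins2, reads from sequence that both share may have been placed at either gene, and the methods of the study name no filter on mapping quality. This was not tested. The authors also aligned the reads to individualized genomes of the strains, but the lists used here come from the B6 reference, and its part in the strain differences at these regions was not tested here.

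Iapp, the amylin gene, had a narrow promoter peak with a median width of 300 bases, and its signal was highest in 129, with 1.45 in the female and 1.67 in the male. WSB had 1.35 and 1.70, CAST 1.32 and 1.25, and NZO 1.06 and 1.02. PWK gave 1.00 and 0.844, B6 0.571 and 0.916, AJ 0.585 and 0.618, and NOD 0.547 and 0.366. The samples of 129, WSB, CAST and NZO were all above those of PWK, B6, AJ and NOD. The sexes of NZO, split at Ins1, differed here by 0.06 on the log2 scale.

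The Iapp promoter means ran from 1.56 ± 0.154 in 129 (SD, n = 2) to 0.456 ± 0.128 in NOD, a 3.41-fold range that was 1.77 ± 0.28 (SE) on the log2 scale. Neighbours in the order overlapped for 129 and WSB, PWK and B6, and B6 and AJ, and were apart elsewhere. The strain effect passed the threshold (limma, adjusted p = 0.00267) and did so in 24 of 25 alternatives. The exception was the deposited mean signal of the peak in place of its summit (adjusted p = 0.412). In the strain lists of the authors, which score how well a peak repeats between the sexes, the Iapp promoter passed an irreproducible discovery rate of 0.05 in 7 strains and missed it in NOD (0.12). The Ins2 promoter passed in 6, all but AJ (0.38) and NZO (0.178), and both Ins1 regions and the other 3 Iapp regions passed in all 8.

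By mean scaled signal over the samples, the regions upstream of Iapp were stronger than its promoter, and the region downstream was broader. At −16.3 kb the 129 male and the PWK male were exceptions, with 1.45 and 0.719 against 1.67 and 0.844 at the promoter. At −8.8 kb the signal exceeded that of the promoter in every sample, from 1.62 in the AJ male to 4.00 in the NZO male, with a median of 2.62. The strain means ran from 3.55 in 129 to 1.62 in AJ, and the strain effect did not pass the threshold (limma, adjusted p = 0.139), although it did without the NZO female (0.0118) or the NZO male (0.0291).

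At −16.3 kb, CAST was highest (2.39 in the female and 2.13 in the male), above WSB (1.82 and 1.85). The lowest strain was NOD (0.814 and 0.756), and PWK was split between 1.35 and 0.719. CAST exceeded NOD by 1.51 ± 0.27 (SE) on the log2 scale. This strain effect passed the threshold (limma, adjusted p = 0.0106) in all alternatives except that of the mean signal (0.0732). In the broad region at 8.0 kb, 129 was highest (2.41 and 1.68), above all other samples, which lay between 0.537 and 1.32. The strain effect there did not pass (adjusted p = 0.0774, from 0.0192 to 0.306 over the alternatives).

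**Figure D4:**
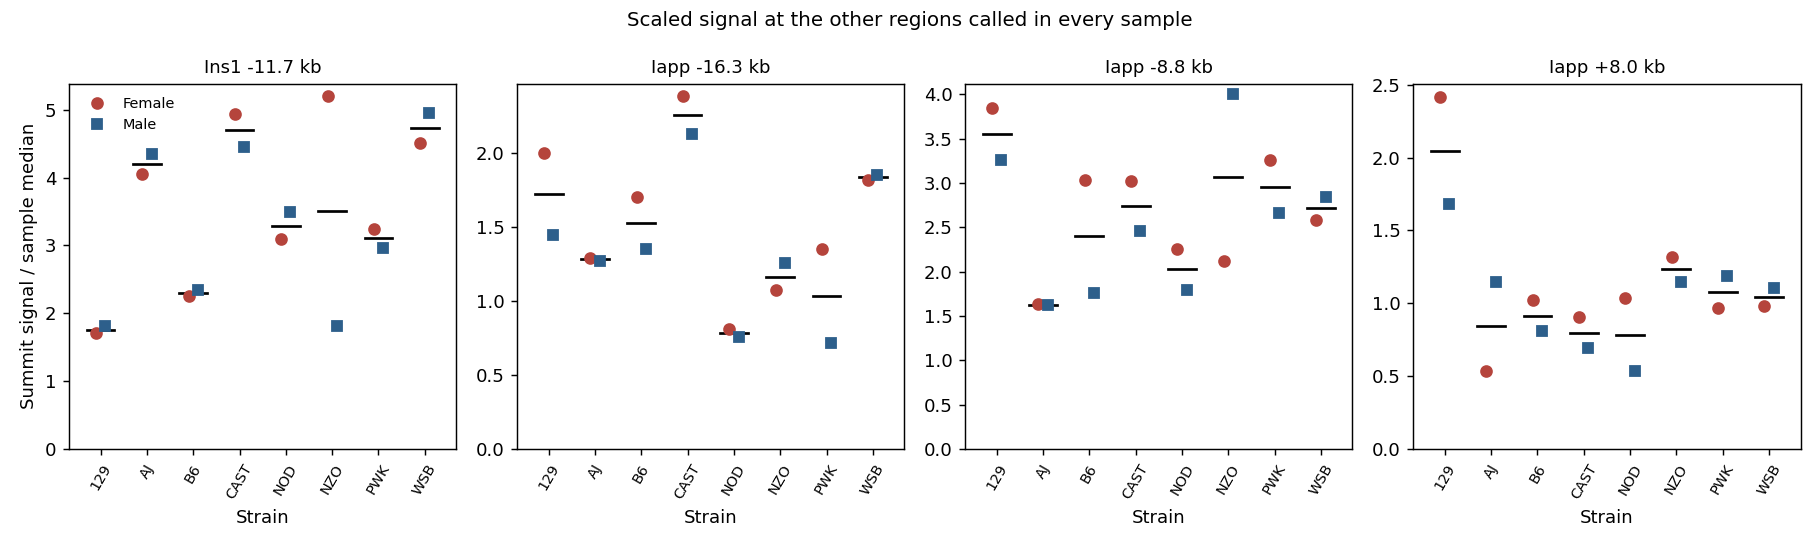
Scaled summit signal at the 4 other regions called in every sample, named by the distance of the median summit from the transcription start, in 8 strains (circles females, squares males, black lines strain means). NZO is split at Ins1 −11.7 kb (5.21 and 1.82) and the other way at Iapp −8.8 kb (2.12 and 4.00), and 129 is highest at Iapp 8.0 kb.

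To ask whether the 3 promoters varied together, their strain means of centred log2 signal were correlated over the 8 strains, for 3 pairs. Ins1 and Ins2 had a Pearson r of −0.11 (exact permutation over all pairings of the strains, two-sided, p = 0.795, adjusted p = 0.795) and a Spearman rho of −0.12 (exact p = 0.793, adjusted p = 0.793). Without AJ and B6, the strains farthest from the median of Ins1, r was 0.30. Ins1 and Iapp had an r of −0.23 (exact permutation p = 0.580, adjusted p = 0.795) and a rho of −0.19 (exact p = 0.665, adjusted p = 0.793), and r without the same strains was −0.16. Ins2 and Iapp had an r of 0.66 (exact permutation p = 0.0773, adjusted p = 0.232) and a rho of 0.74 (exact p = 0.0458, adjusted p = 0.137), and r without AJ and CAST was 0.58. No pair passed the correction.

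**Figure D5:**
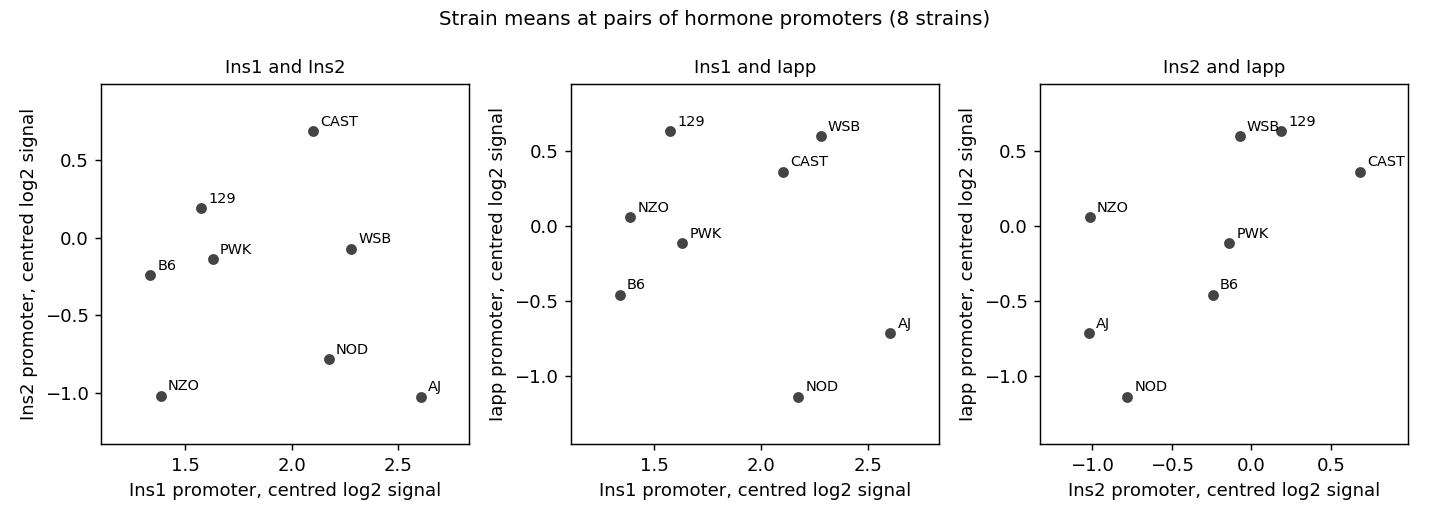
Strain means of centred log2 summit signal at pairs of hormone promoters, with 1 point for each of 8 strains. Ins2 and Iapp had r = 0.66 (exact permutation, adjusted p = 0.232), and AJ lies at high Ins1 with low Ins2 and low Iapp signal.

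Sex and strain class gave no call at the hormone regions. The female had the higher value in 7 of 8 strains at the Ins1 promoter, with a mean difference of 0.31 ± 0.18 (SE) on the log2 scale that was 0.11 ± 0.11 without NZO, and in 7 of 8 at the Ins2 promoter, with 0.28 ± 0.15. At the Iapp promoter it did so in 4 of 8, with a mean difference of −0.04 ± 0.14. The adjusted p was 0.999 at all 7 regions (limma). Wild-derived strains exceeded classical strains at the Ins2 promoter by 0.73 ± 0.32 (SE) on the log2 scale, with mean scaled signals of 1.17 and 0.716 (limma on 8 strain means, unadjusted p = 0.0417, adjusted p = 0.386). At an unadjusted p under 0.05 it was 1 of 7 regions, near the 12.1% of all regions. After adjustment 0 of 7 passed, against 0.0342% of all regions.

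The promoters most like each hormone promoter were named by Pearson r of centred log2 signal over the 16 samples among the 9284 promoters, as a description. For Ins1 they were Trpm3 (0.81), Rbp3 (0.79) and Fgl2 (0.78). For Ins2 they were Spock2 (0.92), Ngrn (0.89) and Rtbdn (0.87). For Iapp they were Slc35b3 (0.79), Depp1 (0.79) and Ap1m2 (0.77).

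Other genes that make, process and release insulin were read from a list of 32, of which 31 are annotated on the autosomes. Of these, 26 had a promoter region called in all 16 samples, and 8 of the 26 (30.8%) passed for strain, a share near the 35.7% of all regions. They were the transcription factors Foxa2 (adjusted p = 0.0114), Nkx2-2 (0.0305), Mafa (0.0398) and Rfx6 (0.0477), the zinc transporter Slc30a8 (0.0116), the prohormone convertase Pcsk1 (0.0119), the peptide hormone Ucn3 (0.0363) and the potassium channel subunit Kcnj11 (0.0442), all by limma. The regions of Kcnj11 (chr7:46095200-46120819) and Ucn3 (chr13:3935000-3948533) were broad. Since the highest summit in a region was taken, their signal need not lie at the promoter itself. Pcsk1, whose enzyme cleaves proinsulin, was highest in CAST and lowest in NZO. Slc30a8, which loads zinc into insulin granules, was highest in 129 and lowest in WSB. The largest adjusted p-values were those of Pam (0.757), Cpe (0.607), Pcsk2 (0.464) and Nkx6-1 (0.436). G6pc2 and Trpm5 had no promoter peak in any sample.

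Some markers of other islet cells were accessible as well. The promoter of the glucagon gene Gcg (alpha cells) had a mean scaled signal of 4.03, against 3.97 at Ins1, 0.886 at Ins2 and 1.02 at Iapp. Of the 4 alpha cell promoters called in all samples, Ttr (limma, adjusted p = 0.0348) and Gc (0.0407) passed for strain, where 35.7% of all regions did. In the delta cell list, Rbp4 was strongest (0.619) and passed for strain (0.000895), while Sst itself had a peak in 1 sample. Ppy and Pyy had no peak, and Ghrl had the strongest promoter of their list (0.269). Outside the endocrine lists, the strongest promoters were Bhlha15 (acinar, 0.697), Cftr (duct, 0.592), Cd74 (leukocyte, 1.12), Erg (endothelial, 0.133) and Col1a1 (stromal, 0.156). The first 3 of these were called in all samples and passed for strain (adjusted p = 0.0426, 0.0117 and 0.00932 by limma), Bhlha15 and Cd74 with their highest mean in NZO.

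Across samples, the lists held from 77887 to 167051 autosomal peaks, and the median summit signal at shared regions was lowest in the PWK male (32) and highest in the CAST male (136). The number of reads behind each sample is unknown here, and no counting interval is given. The labels name no batch and do not say whether a sample pooled mice, and p-values measure the spread between these samples.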

How the data were processed

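ATAC-seq peak lists from islets of 8 strains (1 female and 1 male each) were used. Per the methods of the study and the submitters' processing notes, the authors trimmed adapters with cutadapt 2.0, aligned reads to mm10 with Bowtie2 2.3.4.1, removed duplicates with Picard 2.9.2 and used SAMtools, and used MOSAiCS to call the peaks of each sample (false discovery rate 0.05). A shift for the transposase cut was not given in the sources used here. The deposited signal is a whole-number summit signal not scaled to depth. A deposited mean signal, whose averaging is not defined in the files, served as an alternative. The deposited significance is −log10 p, and the 8 strain lists of the authors hold −log10 of the irreproducible discovery rate with summed summit signals. Read depth of single samples is unknown. No column of sample values was left out.

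From these lists, regions were merged, the highest summit in a region was taken, and log2(signal + 1) was centred on each sample's median over 40940 regions called in all 16 samples. Centring sets the typical shared region equal in all samples, and folds of low signals are understated. Strain (F test) and sex were fitted with limma 3.58.1 in R 4.3.3 on all 16 samples, strain class on the 8 strain means, with a threshold of adjusted p under 0.05. The script was tested on simulated data. Correlations used exact permutation with SciPy 1.17.1 in Python 3.11.15, with pandas 2.3.3 and NumPy 2.4.6. A promoter region was the merged region over the transcription start, and for listed genes the strongest region within 1 kb of it. Named genes were the 3 hormone genes with all their regions, from the beta cell list up to 8 genes called for strain with the smallest p and the 4 with the largest p, from each other list (alpha, delta, PP and epsilon, acinar, duct, endothelial, leukocyte, stromal) the strongest promoter and the smallest strain p, and the 3 promoters most like each hormone promoter. Genes without any promoter peak, and those with a peak in the NZO male alone, were named after their values were seen, and 1 listed marker is not reported here. The members and lists were chosen with earlier results of these data known. Alternatives were no centring, quantile normalization, a pseudocount of 5, the mean signal, regions called in at least 12 samples, a stricter peak threshold, equal numbers of peaks, coverage of a minimum share of the region, no sex term, peaks with a summit within 500 bases of the start, each sample left out, and, added after the data were seen, NZO left out.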

Additional observations from a re-analysis of the deposited data

How the results depend on the processing

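The strain effect at the Ins2 promoter passed the threshold in every alternative in which it could be fitted (0.00259 to 0.0290 with 1 sample left out), and no alternative gave a call for sex or for strain class at a hormone region (0 to 0 of 7 with 1 sample left out). The count of hormone regions with a strain effect, 4 of 7, was 7 without centring, where 63.2% of all regions were called, 2 of the 5 that could be fitted under the stricter peak threshold (35.4% of all regions), and 3 to 6 with 1 sample left out (18.7% to 60.1% of all regions). The count of 6 was reached without the NZO female (60.1% of all regions), the NZO male (46.2%) or both (49.7%), so calls over all regions rose along with it. Where 1 sample of a strain was left out, the other was taken to vary like the rest. The Ins1 promoter (adjusted p = 0.0632) passed without centring (0.0188), with a pseudocount of 5 (0.0477), with the mean signal (0.0193) and without the strain NZO (0.00241), and ran from 0.000586 without the NZO female to 0.155 without the AJ male. The Iapp promoter lost its call with the mean signal (0.412) and ran from 0.00163 to 0.0123 with 1 sample left out. The correlation of Ins1 with Ins2 turned to 0.51 without centring and to 0.26 without the NZO female (leaving out 1 sample gave −0.45 to 0.26), and that of Ins1 with Iapp to 0.38 without centring (−0.30 to −0.17). The correlation of Ins2 with Iapp was 0.82 without centring (exact permutation, adjusted p = 0.0316) and 0.55 to 0.73 with 1 sample left out. Uncentred values carry the overall level of each sample into both members of a pair. Elsewhere the cause of a change was not tested. Where a region had to be covered over at least 0.5 of its length in every sample, none of the 7 regions was among the 3785 left, and the stricter threshold could not be fitted at the Ins2 and Iapp promoters, which it called in 15 and 14 samples. The model of strain and sex compares the female and the male within strains. Depth per sample is unknown, which limits how a missing peak can be read.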
